A study of Mus musculus with 4 samples.

Results

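The genes described here are 9 genes of the circadian clock, *Dbp*, *Tef*, *Per2*, *Per3*, *Nr1d1*, *Nr1d2*, *Arntl*, *Ciart* and *Cry1*, out of 32285 genes counted. They were chosen by name, and all 9 were found in the count tables. The study profiled single cells of mouse fracture callus, the repair tissue that bridges a broken bone, in 4 libraries. All mice were wild-type C57BL/6J, 3 months old, with a fractured tibia. Control mice received vehicle and RA mice received K/BxN serum, an arthritis-inducing serum that models systemic inflammation; injections began on the day of fracture and were repeated before the first collection. Callus was collected at 4 and 7 days post fracture (dpf), which gave the groups control_4d, control_7d, RA_4d and RA_7d. Each group was 1 library made from a pool of calluses, so no difference between groups has a replicate check and no test between groups was possible. The intervals given here are 95% intervals for the counting of molecules and cover counting error only. The hour of collection and the light cycle of the mice are not given in the sources used here. The question for these genes was therefore whether the cell types of 1 library were displaced together along the clock, or whether differences belonged to some cell types.

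The circadian clock is a loop of transcription that runs in nearly every cell. The activator pair BMAL1 (encoded by *Arntl*) and CLOCK binds E-boxes in DNA and turns on its own repressors, the PER and CRY proteins and the repressor CIART (also called CHRONO). In another loop, the nuclear receptors REV-ERBα (*Nr1d1*) and REV-ERBβ (*Nr1d2*) repress *Arntl* through ROR elements (ROREs). The PAR bZIP factors DBP and TEF are outputs of the clock that act on D-boxes, among them those of the *Per* genes. In most peripheral tissues, *Dbp*, *Tef*, *Nr1d1*, *Nr1d2*, *Per3* and *Ciart* are high when *Arntl* is low, and *Cry1* lags behind the other repressors. A shift in clock time therefore moves *Arntl* and *Dbp* in opposite directions.

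The letters of these elements were searched for in the promoters of the members. RefSeq promoters (GRCm38.p6, 250 bases before to 50 after each start) were on hand for 8 of the 9 members, and both strands were read for the E-box CACGTG, the variant CACGTT, the D-box TTATGTAA and its variant TTATGCAA, and the RORE cores TAGGTCA and TAGGTTA. The sequences below show where these letters occur in the members' promoters, with the match in capitals. Each is written 5′ to 3′ on the strand of the gene.
*Ciart* (chr3:95882257-95882354, minus strand, 3 E-boxes): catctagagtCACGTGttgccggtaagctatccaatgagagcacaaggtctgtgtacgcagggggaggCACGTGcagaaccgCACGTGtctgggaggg
*Cry1* (chr10:85185099-85185143, minus strand, variant and E-box): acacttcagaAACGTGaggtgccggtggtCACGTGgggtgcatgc
*Tef*, first start (chr15:81802536-81802561, plus strand, E-box): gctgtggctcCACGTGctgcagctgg
*Tef*, second start (chr15:81811266-81811291, plus strand, E-box): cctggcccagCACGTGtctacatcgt
*Nr1d1* (chr11:98775390-98775415, minus strand, variant on the opposite strand): cacagatctcAACGTGccggctgctg
*Per3* (chr4:151044806-151044880, minus strand, 2 D-boxes): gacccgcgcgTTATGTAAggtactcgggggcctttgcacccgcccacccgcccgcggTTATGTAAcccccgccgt
*Arntl*, first start (chr7:113207493-113207514, plus strand, RORE core): ttggtcggaaagTAGGTTAgtg
*Arntl*, second start (chr7:113207529-113207558, plus strand, RORE core): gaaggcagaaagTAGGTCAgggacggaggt

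The *Ciart* promoter held the E-box 3 times in the stretch of 98 bases shown, whose matches begin at positions −116, −58 and −44 from the start, and the *Per3* promoter held the D-box 2 times in the stretch of 75 bases shown. Of all 32851 promoters in the table, 7.15% held the E-box, 4.68% the variant CACGTT, 0.938% the D-box, 0.743% its variant, 2.61% TAGGTCA and 1.44% TAGGTTA. No match was found in the windows of *Dbp* and *Nr1d2*. A match describes the letters and is not evidence that a factor binds there.

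In GENCODE M21 (GRCm38, the mm10 build used by the authors), *Dbp* spans chr7:45705088-45710203 and *Arntl* chr7:113207465-113314126 on the plus strand. *Tef* spans chr15:81802421-81826863 on the plus strand. *Per2* (chr1:91415982-91459324), *Per3* (chr4:151003652-151044665), *Ciart* (chr3:95878503-95882251) and *Cry1* (chr10:85131700-85185064) lie on the minus strand, as do *Nr1d1* (chr11:98767932-98775333) and *Nr1d2* (chr14:18204054-18239127). *Per3* overlaps *Camta1* on the same strand, so reads that fall in both genes have no certain origin. *Dbp*, *Tef*, *Nr1d1*, *Arntl* and *Ciart* overlap other counted genes only on the opposite strand.

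After the cell filter, control callus kept 5470 cells at 4 dpf and 7676 at 7 dpf and RA callus 4110 and 8223, with median unique molecular identifier (UMI) counts between 16093.5 and 17631.5 per cell and 83405494 to 156567619 UMIs per library. Libraries shared between 5 and 15 cell barcodes. Clusters were named by fixed marker genes, and 10 classes held at least 50 cells in every library: fibroblast-like, mesenchymal progenitor-like, tenocyte-like, pericyte or smooth muscle-like and muscle stem cell-like cells (stromal classes), blood endothelial cell-like cells, and macrophage-like, monocyte-like, dendritic cell-like and T or NK lymphocyte-like cells (immune classes). The suffix is left out below. Of the 81 markers of these classes, none was at 0 in its own class and 63 were highest there. The names were weakest for the mesenchymal progenitor class, where 3 of 8 markers were highest in the class itself, and for the monocyte class, where 1 of 6 was, the others peaking mostly in tenocytes and in neutrophils. The dendritic class was also led by *Ifitm1*, *Ccr7* and *Il1b*. The mean log2 enrichment of markers in this class was 2.91 for dendritic and 2.27 for mast cell or basophil markers. With clustering at resolution 1, the dendritic cluster held 363 cells in control_4d, 195 in RA_4d, 183 in control_7d and 142 in RA_7d. A separate mast cell or basophil cluster then held 21, 40, 14 and 9 cells in the same order. As a measure of RNA carried over between cells, *C1qb*, a macrophage gene, reached 1.02% to 2.80% of its macrophage level in fibroblasts, and *Dcn*, a fibroblast gene, 0.139% to 0.878% of its fibroblast level in macrophages. *C1qb* reached 1.24% to 3.11% in blood endothelial cells. In tenocytes it ran from 0.430% in control_4d to 3.22% in RA_4d. The UMIs of a class in a library were summed, and each gene's share of that sum was scaled in the usual way to CPM. The 9 members were carried by between 1825 (*Per3*) and 18183 (*Arntl*) UMIs in the 10 classes.

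**Figure D1:**
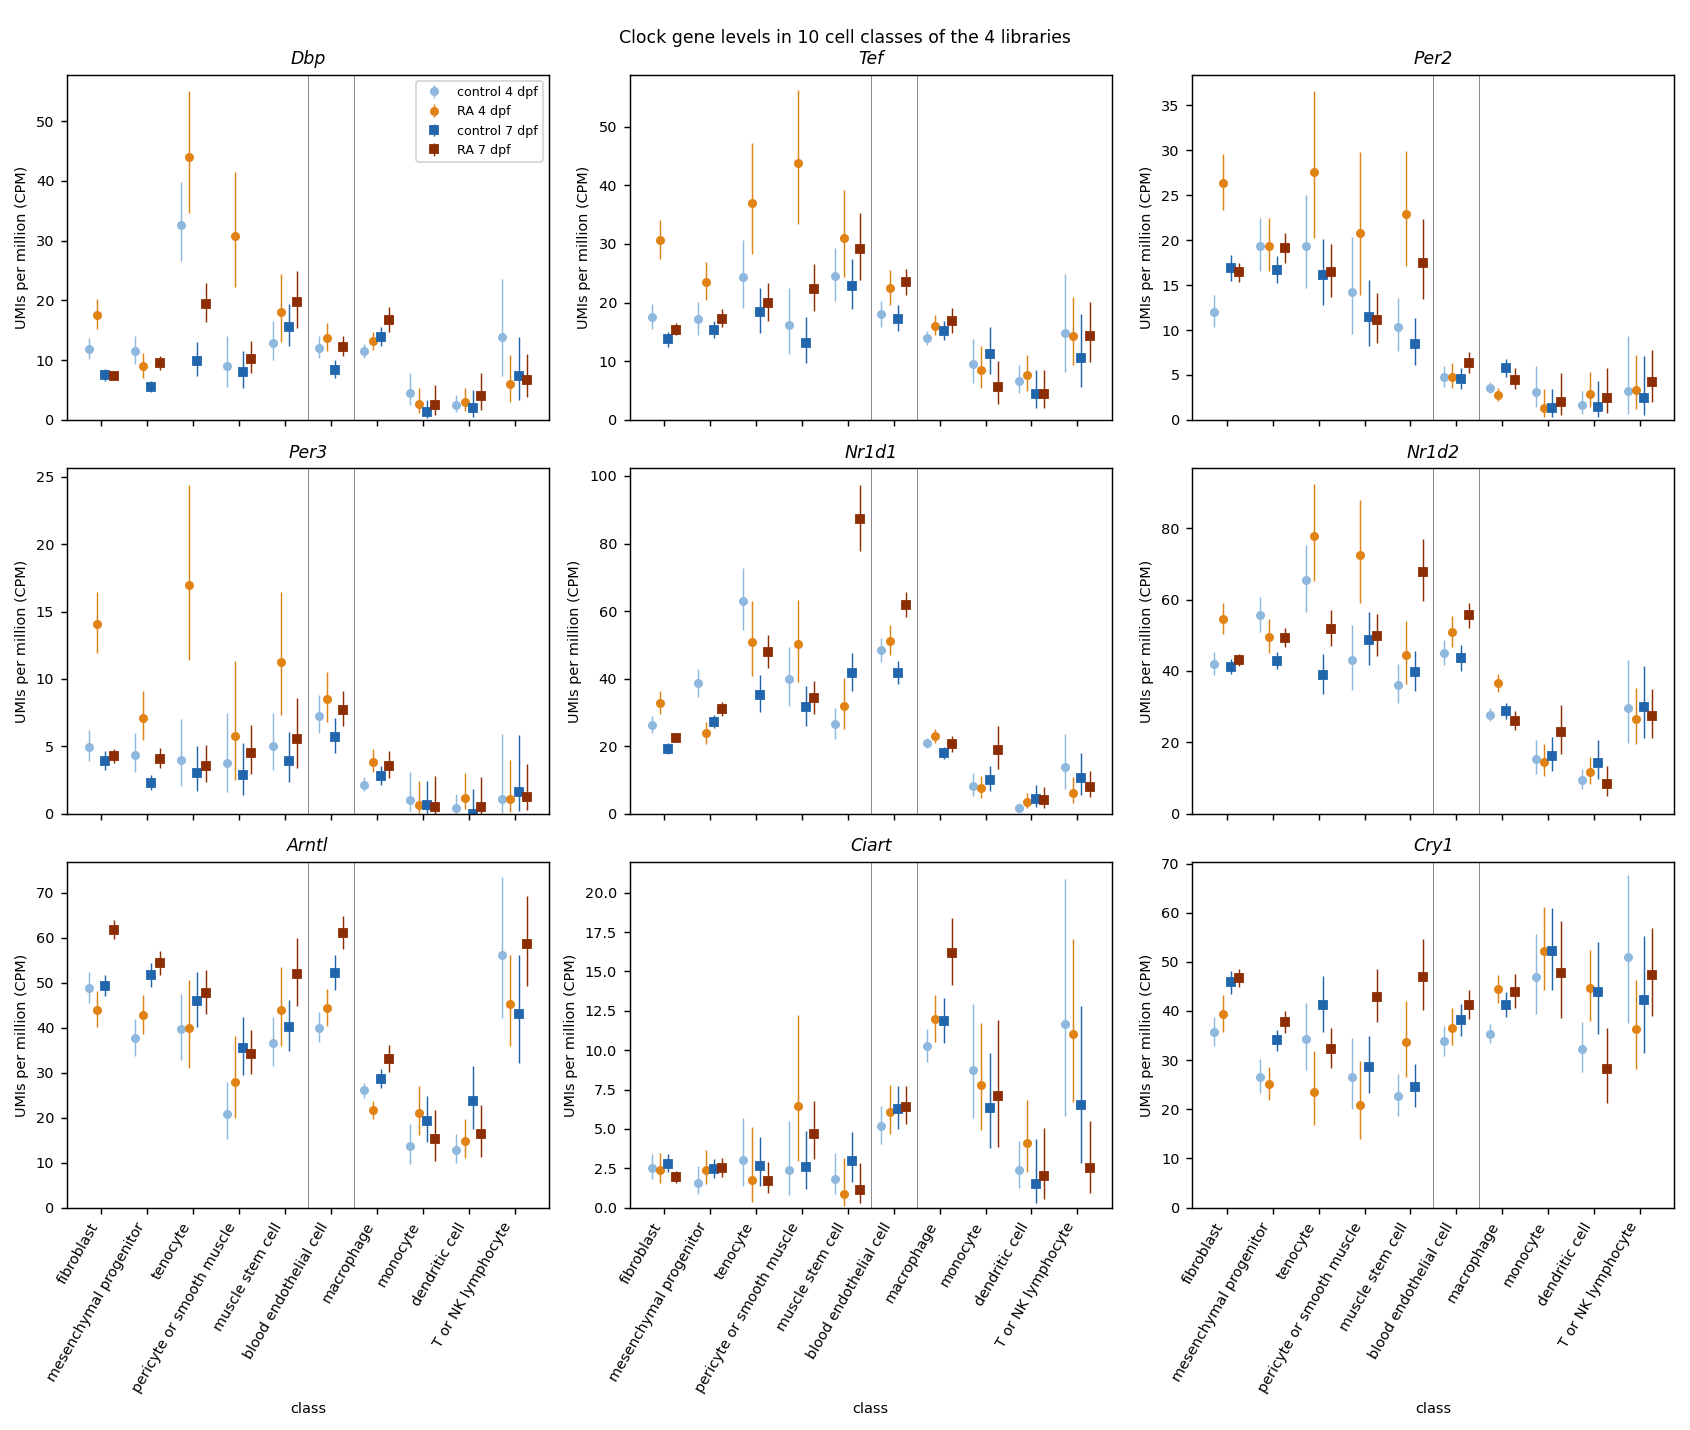
Levels of the 9 clock genes in CPM (vertical axis, starting at 0) in 10 cell classes (horizontal axis), with 1 point per library and vertical lines for the 95% counting interval. Thin grey lines separate stromal, endothelial and immune classes. *Per2* was low in the 4 immune classes, *Ciart* was highest on average in macrophages, and *Cry1* was nearly even across classes. The orange RA_4d points of *Dbp*, *Tef*, *Per2* and *Per3* stood above the other libraries in several stromal classes.

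*Arntl*, the activator, was present in every class. Its mean over the 4 libraries ran from 51.0 CPM in fibroblasts, 50.8 in lymphocytes and 49.4 in blood endothelial cells down to 17.3 in monocytes and 16.9 in dendritic cells, a 3.01-fold span. Neighbours in this order had overlapping ranges over the libraries for 7 of the 9 pairs. The dendritic values of 12.9 (control_4d), 14.9 (RA_4d), 23.7 (control_7d) and 16.3 (RA_7d) lay wholly under the fibroblast values of 48.8, 44.0, 49.4 and 61.8.

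The *Per* genes encode the repressors that give the loop its delay, and *Per2* was higher in the stromal than in the immune classes compared. *Per2* averaged 19.9 CPM in tenocytes, 18.6 in mesenchymal progenitors and 17.9 in fibroblasts, and 4.13 in macrophages, 2.12 in dendritic cells and 1.97 in monocytes, a span of 10.1-fold from the highest to the lowest class. Every stromal *Per2* value, from 8.40 to 27.5 CPM, exceeded every immune value, from 1.33 to 5.73 CPM, in the 10 classes compared. The neutrophil class, an immune class with fewer cells that included granulocyte precursors and is described at the end, had a mean of 22.6 CPM. *Per3* averaged 7.29 CPM in blood endothelial cells, 6.89 in tenocytes and 6.80 in fibroblasts, against 3.08 in macrophages, and its span was 14.1-fold. Its stromal and immune values overlapped, since mesenchymal progenitors and tenocytes of control_7d, at 2.26 and 3.02 CPM, lay below macrophages of RA_4d, at 3.85 CPM. Lymphocytes, monocytes and dendritic cells held 8, 8 and 7 *Per3* UMIs in all, so that differences between libraries were not detectable there at this depth.

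*Cry1*, the late repressor, was the most even member. Its class means lay between 29.7 CPM in pericytes or smooth muscle and 49.8 CPM in monocytes, a 1.67-fold span, and the ranges of all neighbouring classes overlapped. Monocytes, which were lowest or next to lowest for *Dbp*, *Per2* and *Arntl*, were thus highest for *Cry1*.

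*Ciart* showed another pattern. Its mean over the libraries was highest in macrophages, with 10.3 CPM in control_4d, 12 in RA_4d, 11.8 in control_7d and 16.2 in RA_7d. In control_4d lymphocytes stood above macrophages, at 11.7 CPM from 11 UMIs, and the ranges of all neighbouring classes overlapped. *Ciart* stayed between 0.863 and 3.00 CPM in fibroblasts, mesenchymal progenitors, tenocytes and muscle stem cells. The macrophage and muscle stem cell means differed by 7.47-fold. The macrophage values did not overlap those of these 4 stromal classes. Of the 2191 *Ciart* UMIs in the 10 classes, macrophages held 1132.

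*Nr1d1* and *Nr1d2*, the REV-ERB repressors of *Arntl*, were both lowest in dendritic cells among the 10 classes, and tenocytes ranked high for both. *Nr1d1* averaged 50.8 CPM in blood endothelial cells, 49.3 in tenocytes and 46.8 in muscle stem cells, and 3.38 CPM in dendritic cells, which is the widest span of the 9 genes (15-fold). *Nr1d2* averaged 58.5 CPM in tenocytes, 53.5 in pericytes or smooth muscle, 49.3 in mesenchymal progenitors and 48.7 in blood endothelial cells, against 11 in dendritic cells. Dendritic cells were also lowest for *Arntl*.

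*Dbp* and *Tef*, the outputs, were also unequal between classes. *Dbp* averaged 26.5 CPM in tenocytes, 16.6 in muscle stem cells and 13.8 in macrophages, and 2.81 and 2.78 in dendritic cells and monocytes. Its tenocyte values ran from 9.88 CPM in control_7d through 19.5 in RA_7d and 32.7 in control_4d to 43.9 in RA_4d, the widest range of any class. *Tef* averaged 26.9 CPM in muscle stem cells, 24.9 in tenocytes and 5.78 in dendritic cells, a 4.65-fold span, and no neighbouring classes were separated.

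The first comparison asked how RA and control callus differed at 4 dpf. A class value is the log2 ratio of (CPM + 1) between 2 libraries, and the mean over the 10 classes gives each class equal weight. Counts of values at least 2-fold higher or lower use this log2 ratio. Ratios printed with an interval are of CPM without the added 1, so a few pass 2-fold that are not counted. None of the 9 members reached 2-fold in this mean, where 0.122% of 17185 genes were at least 2-fold higher in RA_4d and 0.0582% at least 2-fold lower. The member means ran from −0.02 for *Nr1d1* to 0.65 for *Per3*, with a median of 0.17 against 0.03 for all genes. *Per3* (0.65, interval 0.35 to 0.94) exceeded 99.6% of genes and *Tef* (0.40, interval 0.24 to 0.56) 96.9%. *Per2* followed with 0.27 and *Nr1d2* with 0.21. *Arntl* (0.11), *Ciart* (0.11) and *Cry1* (0.03) had intervals that included 0, as did *Dbp* (0.17).

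**Figure D2:**
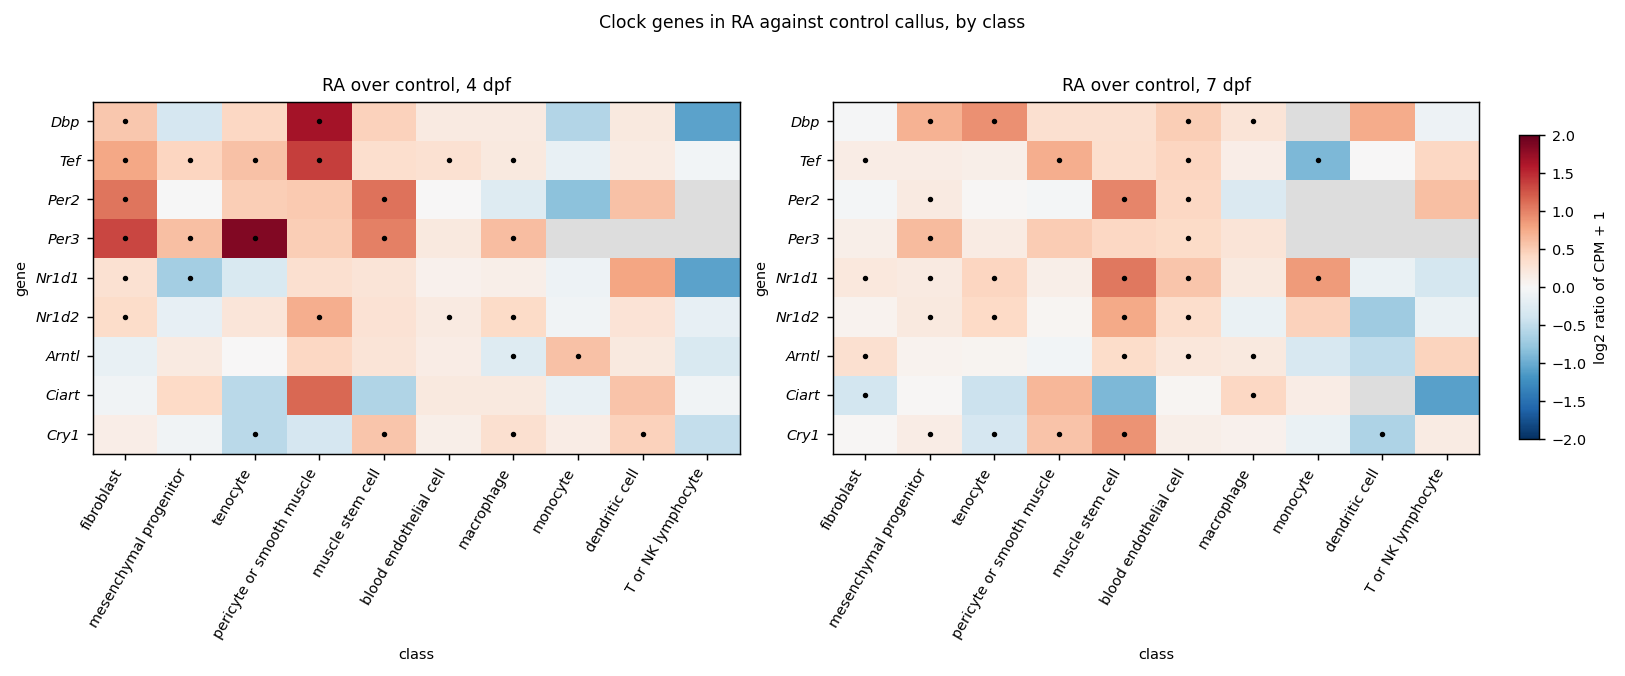
Log2 ratio of CPM + 1 for RA over control callus at 4 dpf (left) and 7 dpf (right), with the 9 genes as rows and the 10 classes as columns. Red is higher in RA, blue is lower, grey marks fewer than 10 UMIs over both libraries, and a dot marks a 95% counting interval that excludes equality. At 4 dpf the darkest red cells are *Per3* in tenocytes and fibroblasts and *Dbp* and *Tef* in pericytes or smooth muscle, and lymphocytes show no red.

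By lineage, the values of 4 members were as follows at 4 dpf. Among values with at least 10 UMIs, *Dbp*, *Tef*, *Per2* and *Per3* were higher in RA_4d in 18 of 20 stromal values, with a median log2 ratio of 0.56 and 12 intervals above equality. Over all genes, 53.8% of stromal values were higher and 15.7% had an interval above equality. Of the 12 immune values 6 were higher, with a median of 0.06 and 2 intervals above equality, where 50.6% of all immune values were higher and 13.8% had such an interval. In this and the other comparisons, *Per3* reached 10 UMIs in no immune class but macrophages. The immune values are therefore mostly of *Dbp*, *Tef* and *Per2*, and the mix of genes differs between the lineages. The stromal and immune grouping, and that of these 4 genes, was made after the values were seen, and the difference between the lineages was not tested.

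*Per3* carried the largest of these differences. In fibroblasts it was 4.98 CPM in control_4d, 14.1 in RA_4d, 3.88 in control_7d and 4.27 in RA_7d, and the RA_4d library alone stood out. The fibroblast ratio at 4 dpf was 2.83 (interval 2.14 to 3.76). In tenocytes it was 4.01, 17.0, 3.02 and 3.52 CPM in the same order, a ratio of 4.24 (2.10 to 9.13) that rests on 12 and 29 UMIs. Muscle stem cells had 5.05, 11.2, 3.91 and 5.55 CPM, and mesenchymal progenitors 4.37, 7.13, 2.26 and 4.07. RA_4d was highest in each of the 5 stromal classes, including pericytes or smooth muscle, where 5.74 against 3.79 CPM rested on 8 UMIs each.

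The *Per3* mean over the 5 stromal classes was 1.06 on the log2 scale, past 2-fold, as for 0.331% of 14796 genes. It was 0.99 with TMM scaling, a trimmed mean scaling of the libraries, and 0.51 with a pseudocount of 10 CPM, both short of 2-fold. *Per3* was also the only member that was higher in RA_4d in every class with at least 10 UMIs (7 of 7), which 2.47% of 11937 genes with at least 7 such classes shared, and 2.82% were lower in every class. Macrophages were among them, with 2.16 CPM in control_4d and 3.85 in RA_4d (ratio 1.78, interval 1.29 to 2.45). Both fibroblast clusters showed the difference, one with 6.27 and 17.0 CPM and the other with 3.50 and 8.95 CPM. *Camta1*, which overlaps *Per3*, had a mean of 0.02 over the 10 classes, with 0.17 over stromal and −0.19 over immune classes.

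*Per2* was 12 CPM in control_4d, 26.3 in RA_4d, 16.8 in control_7d and 16.4 in RA_7d in fibroblasts, a ratio of 2.19 (1.82 to 2.64) at 4 dpf. In muscle stem cells it was 10.3, 22.9, 8.40 and 17.5 CPM, so both RA libraries were higher there. In mesenchymal progenitors it was 19.4, 19.4, 16.7 and 19.1 CPM, nearly level over the 4 libraries.

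*Dbp* in pericytes or smooth muscle was 9.01 CPM in control_4d, 30.8 in RA_4d, 8.01 in control_7d and 10.2 in RA_7d, a ratio of 3.42 (1.95 to 6.22) from 19 and 43 UMIs. At resolution 1 this class split into a cluster led by *Myh11*, with 51 cells in control_4d and 47 in RA_4d, and one led by *Rgs5*, with 47 and 27. The part of this mix in the *Dbp* and *Tef* values of the class was not tested. In fibroblasts *Dbp* was 11.8, 17.6, 7.49 and 7.34 CPM. The fibroblast clusters differed at 4 dpf, one with 13.4 CPM in control_4d and 23.9 in RA_4d and the other with 10.1 and 6.71 CPM. In mesenchymal progenitors and lymphocytes *Dbp* was instead lower in RA_4d, at 11.5 against 8.94 CPM and 13.8 against 6.07 CPM, with intervals that included equality. Over the 10 classes, 7 *Dbp* values were higher and 3 lower in RA_4d, with 2 intervals above equality and 0 below.

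*Tef* was higher in RA_4d in 8 of 10 classes, with 6 intervals above equality. In pericytes or smooth muscle it was 16.1 CPM in control_4d, 43.7 in RA_4d, 13.2 in control_7d and 22.3 in RA_7d, a ratio of 2.71 (1.76 to 4.26). In fibroblasts it was 17.5, 30.7, 13.7 and 15.4 CPM, a ratio of 1.75 (1.49 to 2.06). Monocytes and lymphocytes had ratios of 0.897 and 0.965, with intervals that included equality. Blood endothelial cells had 9 of 9 members higher in RA_4d, 2 with intervals above equality, where 52.2% of all genes in that class were higher and 15.3% had such an interval. The clusters of this class differed for *Nr1d1*. It was 50.1 CPM in control_4d and 69.1 in RA_4d in the cluster led by *Selp*. In those led by *Adgrl4* and *Ube2c* it was 50.1 and 43.9 CPM and 33.5 and 28.4 CPM. Lymphocytes had 7 of 7 members lower, 0 of them with an interval below equality, where 50.2% of all genes were lower.

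The REV-ERB genes differed from each other at 4 dpf. *Nr1d1* was higher in RA_4d fibroblasts (32.8 against 26.2 CPM, ratio 1.25, interval 1.08 to 1.44) and lower in RA_4d mesenchymal progenitors (23.8 against 38.6 CPM, ratio 0.616, interval 0.517 to 0.734). *Nr1d2* was higher in RA_4d in 7 of 10 classes, with 4 intervals above equality and 0 below, and had a mean of 0.30 over stromal and 0.11 over immune classes. It was higher in pericytes or smooth muscle (72.4 against 43.1 CPM), macrophages (36.5 against 27.7) and fibroblasts (54.6 against 41.9). *Arntl* was lower in RA_4d macrophages, at 21.7 against 26.1 CPM (ratio 0.831, interval 0.742 to 0.930), and higher in monocytes, at 21.1 against 13.7 CPM. *Cry1* was higher in macrophages (44.4 against 35.4 CPM) and lower in tenocytes (23.4 against 34.4 CPM).

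Counted over all members and classes with at least 10 UMIs at 4 dpf, 59 values were higher in RA_4d (68.6% against 52.4% over all genes) and 27 lower. Of these 86 values, 8 were at least 2-fold higher (9.30%, against 2.75% over all genes) and 2 at least 2-fold lower (2.33% against 2.22%). The counting interval lay above equality for 24 (27.9% against 15% over all genes) and below for 3 (3.49% against 12.4%). Genes of 1 pathway and classes of 1 library are not independent, so these shares describe the table only.

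At 7 dpf RA and control callus were compared in the same way. No member reached 2-fold in the class mean, where 0.107% of 18628 genes were at least 2-fold higher and 0.107% at least 2-fold lower. *Dbp* led with 0.42 (interval 0.20 to 0.64), above 97.5% of genes, followed by *Nr1d1* with 0.31 (0.14 to 0.48), *Per2* and *Per3* with 0.27 each, *Tef* with 0.16 and *Nr1d2* with 0.13. *Ciart* was at −0.12, *Arntl* at 0.08 and *Cry1* at 0.09. The median over members was 0.16 against −0.01 for all genes. *Dbp*, *Tef*, *Per2* and *Per3* were higher in RA_7d in 17 of 20 stromal values (47.8% over all genes), with a median of 0.25. They were higher in 7 of 10 immune values (48.8%), with a median of 0.19. Intervals lay above equality for 7 stromal values (16.2%) and 1 immune value (10.5%). *Nr1d1* and *Nr1d2* were higher in 10 of 10 stromal and 3 of 8 immune values. The grouping was made after the values were seen and was not tested.

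*Nr1d1* at 7 dpf was higher in RA in 8 of 10 classes. In muscle stem cells it was 26.5 CPM in control_4d, 31.9 in RA_4d, 41.6 in control_7d and 87.2 in RA_7d. The RA_7d value was the highest of any class and library, with a ratio of 2.10 (1.76 to 2.51) over control_7d. In blood endothelial cells *Nr1d1* was 48.3, 51.2, 41.8 and 61.9 CPM in the same order, a ratio of 1.48 (1.34 to 1.64) at 7 dpf.

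Muscle stem cells of RA_7d were also higher than those of control_7d for *Per2* (17.5 against 8.40 CPM), *Cry1* (46.9 against 24.6), *Nr1d2* (67.8 against 39.6) and *Arntl* (51.9 against 40.2), each with an interval above equality. These repressors and the activator thus stood higher together in this class. Of the members, 8 were higher there and 1 lower, 5 with intervals above equality. Over all genes, 50% were higher in this class and 17.8% had such an interval. The lower member was *Ciart*, also a repressor, at 1.11 against 2.93 CPM, from 4 and 15 UMIs. The median UMIs per cell of the class were 24638.5 in control_4d, 18231.5 in RA_4d, 14481 in control_7d and 9771.5 in RA_7d. The genes that led the class included *Pax7* as well as *Myog*, *Ttn* and *Acta1*. The part of depth and of the mix of cells within the class in these values, and in that of *Nr1d1*, was not tested. Blood endothelial cells had 9 of 9 members higher at 7 dpf, 7 of them with intervals above equality, where 51.2% of all genes in that class were higher and 18.8% had such an interval. The clusters of this class were not alike. In the cluster led by *Selp*, *Arntl* was 65.5 CPM in control_7d and 57.1 in RA_7d, and *Per2* 5.10 and 3.69. In the cluster led by *Adgrl4*, *Arntl* was 47.1 and 62.0 CPM and *Per2* 4.51 and 8.12. In the cluster led by *Ube2c*, they were also higher in RA_7d. Mesenchymal progenitors had 9 of 9 members higher, 6 of them with intervals above equality, where 47.3% of all genes were higher and 20.2% had such an interval.

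*Dbp* at 7 dpf was higher in RA tenocytes (19.5 against 9.88 CPM, ratio 1.97, interval 1.42 to 2.78) and mesenchymal progenitors (9.53 against 5.52 CPM, ratio 1.73, interval 1.41 to 2.11), and nearly level in fibroblasts (7.34 against 7.49 CPM). *Per3* was again higher in each of the 7 classes with at least 10 UMIs, as were 2.31% of 12947 genes, while 3.38% were lower in each such class. Its 7 ratios were smaller than 2-fold, and only those of blood endothelial cells (1.36) and mesenchymal progenitors (1.80) had intervals above equality.

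Over the 83 member and class values at 7 dpf, 62 were higher in RA_7d (74.7% against 48.5% over all genes) and 21 lower. The interval lay above equality for 30 (36.1% against 14.6% over all genes) and below for 4 (4.82% against 16.4%). At least 2-fold higher was 1 value (1.20% against 1.96%) and at least 2-fold lower was 1 value (1.20% against 1.99%). *Tef* in monocytes (5.58 against 11.3 CPM), *Cry1* in dendritic cells (28.1 against 43.9) and in tenocytes (32.2 against 41.1) and *Ciart* in fibroblasts (1.92 against 2.78) made up the 4 values below equality.

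The second pair of comparisons followed time within control and within RA callus. These share their libraries with the comparisons above, so the values are given side by side and not as further support.

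**Figure D3:**
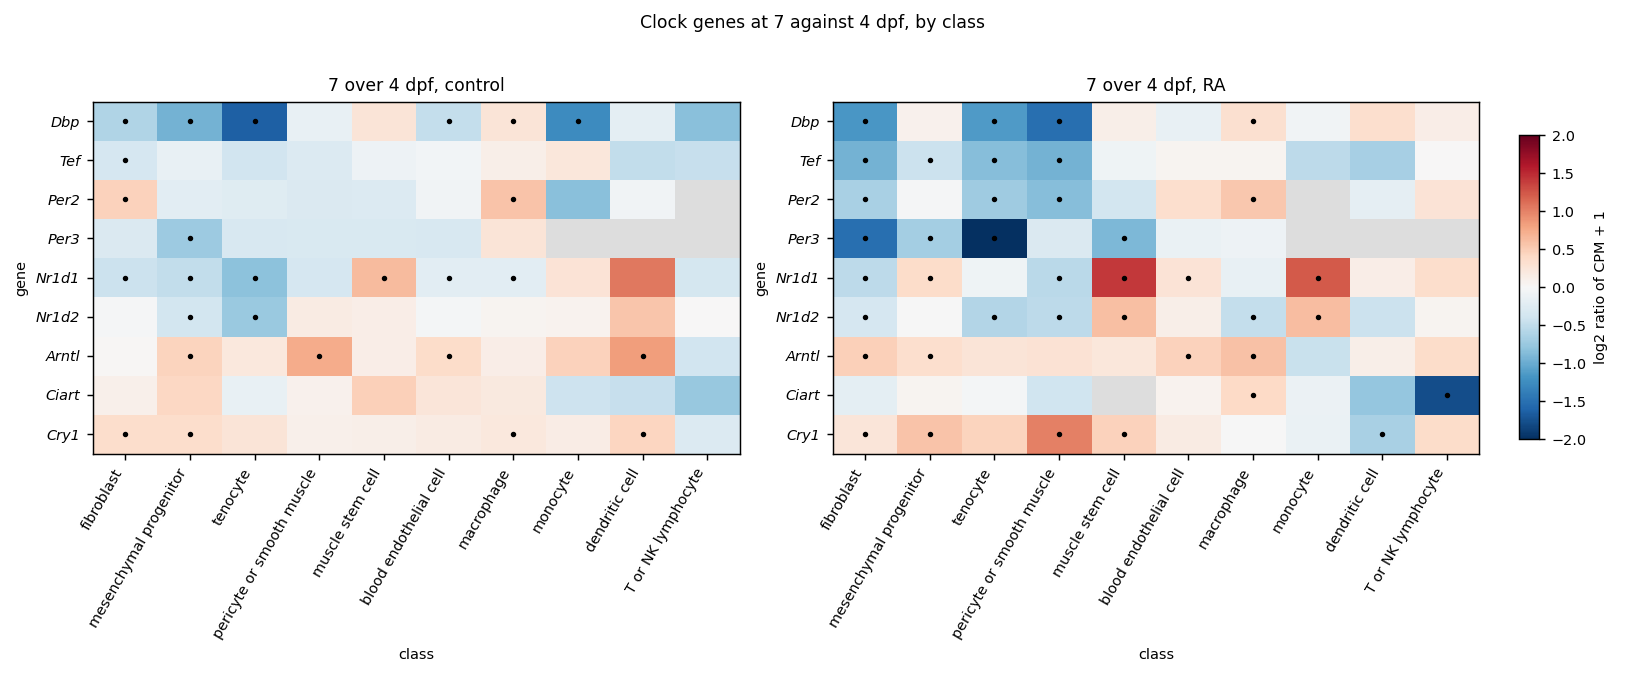
Log2 ratio of CPM + 1 for 7 over 4 dpf in control (left) and RA callus (right), with the 9 genes as rows and the 10 classes as columns, coloured and marked as in the map of RA over control. Blue at *Dbp* and *Per3* in most stromal columns stands beside pale red at *Arntl* and *Cry1* in the same columns, in both kinds of callus.

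In control callus *Dbp* had the largest class mean of the members, −0.56 (interval −0.78 to −0.34), and its percentile among all genes was 0.218. No member reached 2-fold in this mean, where 0.585% of 17935 genes were at least 2-fold higher at 7 dpf and 0.0112% at least 2-fold lower. *Dbp* was lower at 7 dpf in 8 of 10 classes, with a ratio of 0.302 (0.210 to 0.430) in tenocytes and 0.478 (0.371 to 0.618) in mesenchymal progenitors, and higher in macrophages (ratio 1.21, interval 1.04 to 1.41). *Arntl* was higher at 7 dpf in 9 of 10 classes, with a mean of 0.30 (0.18 to 0.41), and *Cry1* in 9 of 10 with 0.19 (0.08 to 0.29). The exceptions were lymphocytes for both genes.

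Of the other members in control callus, *Nr1d1* was lower at 7 dpf in tenocytes (35.3 against 63.1 CPM), mesenchymal progenitors (27.1 against 38.6) and fibroblasts (19.3 against 26.2) and higher in muscle stem cells (41.6 against 26.5). *Tef*, *Per3*, *Per2*, *Nr1d1*, *Ciart* and *Nr1d2* had class means of −0.19, −0.24, −0.12, −0.09, −0.03 and −0.02. No member had 1 direction in every class, where 2.7% of 12571 genes were higher and 0.43% lower in every class.

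Among the 86 control values, 12 had intervals above equality (14.0% against 17.6% over all genes) and 14 below (16.3% against 10.3%). A single value was at least 2-fold higher (1.16% against 3.15%), and 2 were at least 2-fold lower (2.33% against 1.73%), both of *Dbp*, in tenocytes and in monocytes. The mesenchymal progenitor value of *Dbp* given above fell short of 2-fold with the added 1 CPM.

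In RA callus the mean of *Per3* was −0.62 (interval −0.89 to −0.35), that of *Tef* −0.43 (−0.60 to −0.27) and that of *Dbp* −0.30 (−0.51 to −0.09), and those of *Arntl*, *Cry1* and *Nr1d1* were 0.27, 0.25 and 0.25. No member reached 2-fold in the mean, where 0.937% of 18148 genes were at least 2-fold higher at 7 dpf and 0.187% at least 2-fold lower. *Per3* was lower at 7 dpf in all 7 classes with at least 10 UMIs, as were 1.07% of 12546 genes, and 2.29% were higher in every such class.

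The *Per3* mean over the 5 stromal classes was −1.08, past 2-fold, as for 0.336% of 16685 genes. It was −0.88 with the looser cell filter and −0.52 with a pseudocount of 10 CPM, both short of 2-fold. With the looser filter no cluster was named mesenchymal progenitor, so that value is over a different set of classes. The 6 values that were at least 2-fold lower were of *Per3* in tenocytes (ratio 0.207, interval 0.118 to 0.363) and fibroblasts (0.304, 0.247 to 0.373), of *Ciart* in lymphocytes (0.229, 0.0754 to 0.592), and of *Dbp* in pericytes or smooth muscle (0.331, 0.220 to 0.503), fibroblasts (0.416, 0.351 to 0.496) and tenocytes (0.443, 0.333 to 0.592). *Ciart* in lymphocytes was 11 CPM in RA_4d and 2.53 in RA_7d, from 20 and 6 UMIs. The *Per3* and *Dbp* values share the RA_4d levels given above. In fibroblasts *Dbp* was 23.9 CPM in RA_4d and 7.73 in RA_7d in one cluster and 6.71 and 6.84 CPM in the other.

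Of the 85 RA values, 17 had intervals above equality (20% against 16.1% over all genes) and 22 below (25.9% against 13.4%). At least 2-fold higher were 3 values (3.53% against 3.86%), *Nr1d1* in muscle stem cells (2.73, interval 2.11 to 3.57) and monocytes (2.51, 1.44 to 4.47) and *Cry1* in pericytes or smooth muscle (2.06, 1.40 to 3.15). At least 2-fold lower were 6 values (7.06% against 2.53%).

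Read by lineage, *Dbp*, *Tef*, *Per2* and *Per3* in control callus were lower at 7 dpf in 18 of 20 stromal values, where 39.8% of all stromal values were lower. Intervals lay below equality for 5 of them (11.2% of values over all genes) and above for 1 (21% over all genes), *Per2* in fibroblasts. In immune classes 7 of 12 values of these genes were lower (47.2% over all genes), 1 with an interval below equality (9.27%) and 2 above (11.8%), and in blood endothelial cells 4 of 4 (39.9%). The control mean of *Dbp* was −0.61 over stromal and −0.51 over immune classes.

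*Arntl* and *Cry1* in control callus were higher at 7 dpf in 10 of 10 stromal values, 4 with intervals above equality. Over all genes, 60.2% of stromal values were higher and 21% had such an interval. In immune classes they were higher in 6 of 8 values (52.8% over all genes), 3 with intervals above equality (11.8%). In control callus the higher *Arntl* and *Cry1* values were thus not limited to stromal classes. The immune counts of *Dbp*, *Tef*, *Per2* and *Per3* lay near the shares over all genes.

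In RA callus *Dbp*, *Tef*, *Per2* and *Per3* were lower at 7 dpf in 18 of 20 stromal values (47.2% over all genes), 14 with intervals below equality (13.7%), and in 5 of 12 immune values (50.1%), 0 with an interval below equality (13.3%) and 2 above (14.4%). *Arntl* and *Cry1* were higher in 10 of 10 stromal values (52.8%), 6 with intervals above equality (16.3%). They were higher in 4 of 8 immune values (49.9%), with 1 interval above equality (14.4%) and 1 below (13.3%). The genes and lineages were grouped after the values were seen, and no difference between lineages was tested.

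The log2 difference between *Dbp* and *Arntl*, in which an opposite movement of output and activator adds up, was lower at 7 than at 4 dpf by a mean of −0.85 in control and −0.57 in RA callus, and in 8 of 10 classes in each. Between RA and control it was 0.06 at 4 dpf and 0.34 at 7 dpf, higher in 7 of 10 classes at both times, with class values from −1.17 to 1.26 at 4 dpf. The 0.34 fell to 0.00769 with all kept cells pooled and to 0.00227 over classes with at least 20 cells. Macrophages, with *Dbp* at 11.5 and 13.9 CPM in control_4d and control_7d and *Arntl* at 26.1 and 28.6, did not show the opposite movement.

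**Figure D4:**
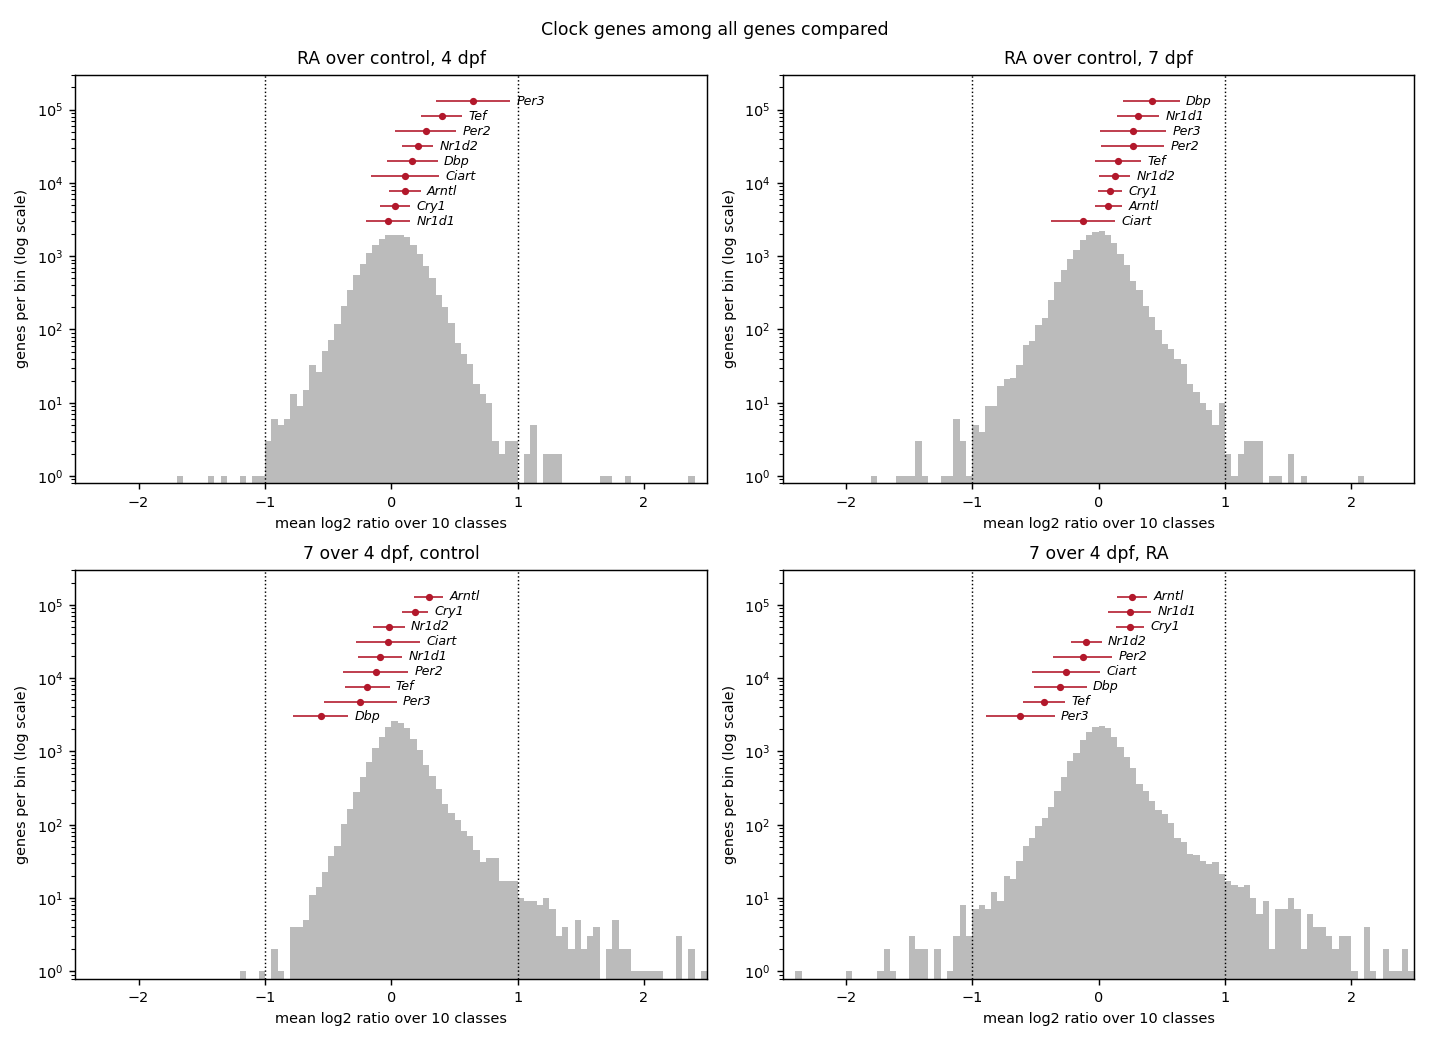
Mean log2 ratio over 10 classes (horizontal axis) for all genes compared (grey histogram, number of genes per bin on a log axis) and for the 9 clock genes (red points with 95% counting intervals, stacked only for legibility), in the 4 comparisons. Dotted lines mark 2-fold. All 9 points lie between the dotted lines in each panel, and *Dbp*, *Tef* and *Per3* sit at the left and *Arntl* at the right of the members in both panels of 7 over 4 dpf.

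The other genes of the clock were read from fixed lists. Of the 6 clock activators, which include *Arntl*, 5 were compared between control_7d and control_4d and all 5 were higher at 7 dpf (median 0.25 against 0.05 for all genes), and 5 of 6 were higher in RA_7d than in RA_4d (median 0.42 against 0.02). *Npas2*, a partner of BMAL1 that can stand in for CLOCK, had means of 0.55 in control and 0.62 in RA callus, higher in 7 of 7 classes with at least 10 UMIs in each. *Rorb*, a nuclear receptor of the ROR family, was the single listed clock gene at or past 2-fold in a class mean (1.07, RA_7d over RA_4d). In that comparison 0.937% of 18148 genes were at least 2-fold higher. Its level was highest in fibroblasts, at 149.6 CPM in control_4d, 53.3 in RA_4d, 57.2 in control_7d and 203 in RA_7d, followed by mesenchymal progenitors at 23.3, 18.3, 12.4 and 57.5 CPM. *Rorb* was among the leading genes of one fibroblast cluster. At least 10 UMIs of it were found in 5 classes for RA_4d over control_4d and in 7 for RA_7d over control_7d. The part of RNA carried over from fibroblasts in its class mean was not tested. *Npas2*, *Hlf* and *Per1* lay outside the 2-fold rule for naming clock genes and were picked out after their values were seen.

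The 3 PAR bZIP factors, *Dbp*, *Tef* and *Hlf*, were all higher in RA at both times, with medians of 0.40 at 4 dpf and 0.42 at 7 dpf. *Hlf* had the highest mean of the listed clock genes at 4 dpf, 0.80 (interval 0.56 to 1.04), above 99.8% of genes. Its largest ratio was in the dendritic class, at 2.41 CPM in control_4d, 15.2 in RA_4d, 2.96 in control_7d and 3.95 in RA_7d. Its mean was 0.97 over stromal and 0.66 over immune classes, and the immune mean rested mostly on the dendritic class. Lymphocytes had 16.99 CPM of *Hlf* in control_4d and 20.96 in RA_4d. Monocytes held 1 UMI of it in each of these libraries, and each macrophage cluster at most 2. The part of mast cells or basophils in the dendritic values was not tested. *Hlf* was also highest in RA_4d in fibroblasts, at 17.3 CPM against 8.0 in control_4d, 7.49 in control_7d and 8.26 in RA_7d, and in tenocytes, at 23.4 CPM against 5.67, 7.46 and 8.75. *Per1*, the third *Per* gene, had means of 0.26 at 4 dpf and 0.40 at 7 dpf, higher in RA in 9 of 10 classes at both times.

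The 11 clock repressors had medians of 0.11 and 0.20 for RA over control at 4 and 7 dpf, −0.03 for 7 over 4 dpf in control and −0.01 in RA callus. The 9 genes of clock protein turnover and modification, such as the kinases *Csnk1d* and *Csnk1e*, stayed between −0.42 and 0.48 in all comparisons, with medians of 0.09, 0.03, 0.07 and −0.00192 in the order RA over control at 4 and 7 dpf and 7 over 4 dpf in control and RA callus. The 8 rhythmic outputs had medians of 0.18, 0.07, −0.03 and −0.12 in the same order, and none of them was past 2-fold.

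Several clock genes respond to signals other than the clock, and lists of such responders were measured beside the members. Glucocorticoids, the stress hormones, induce *Per1*, *Fkbp5*, *Tsc22d3* and *Zbtb16* among others. *Fkbp5*, which encodes a chaperone of the glucocorticoid receptor, was higher in RA_4d than in control_4d in 10 of 10 classes, with a mean of 1.15 (interval 1.03 to 1.27), and lower in RA_7d than in RA_4d in 10 of 10 (−0.95). In macrophages it was 9.96 CPM in control_4d, 35.7 in RA_4d, 9.50 in control_7d and 13.7 in RA_7d, and in tenocytes 23.0, 92, 24.2 and 20.6 CPM. RA_4d was highest of the 4 libraries in both classes, and the mean was 1.11 over stromal and 1.30 over immune classes.

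*Zbtb16* (1.11) and *Tsc22d3* (0.60) followed at 4 dpf. Both were larger in the stromal than in the immune classes, with stromal means of 1.68 and 0.90 against 0.12 and 0.28, and their values in blood endothelial cells were 2.23 and 0.40. The 10 genes of the glucocorticoid list had a median of 0.25 at 4 dpf, with 8 higher and 2 at or past 2-fold, and of 0.37 at 7 dpf, with 10 of 10 higher, led by *Zbtb16* (0.70), *Klf9* (0.58) and *Cebpd* (0.55). For 7 over 4 dpf the medians were −0.15 in control and −0.05 in RA callus. The part of these hormones in the values of the clock genes was not tested.

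**Figure D5:**
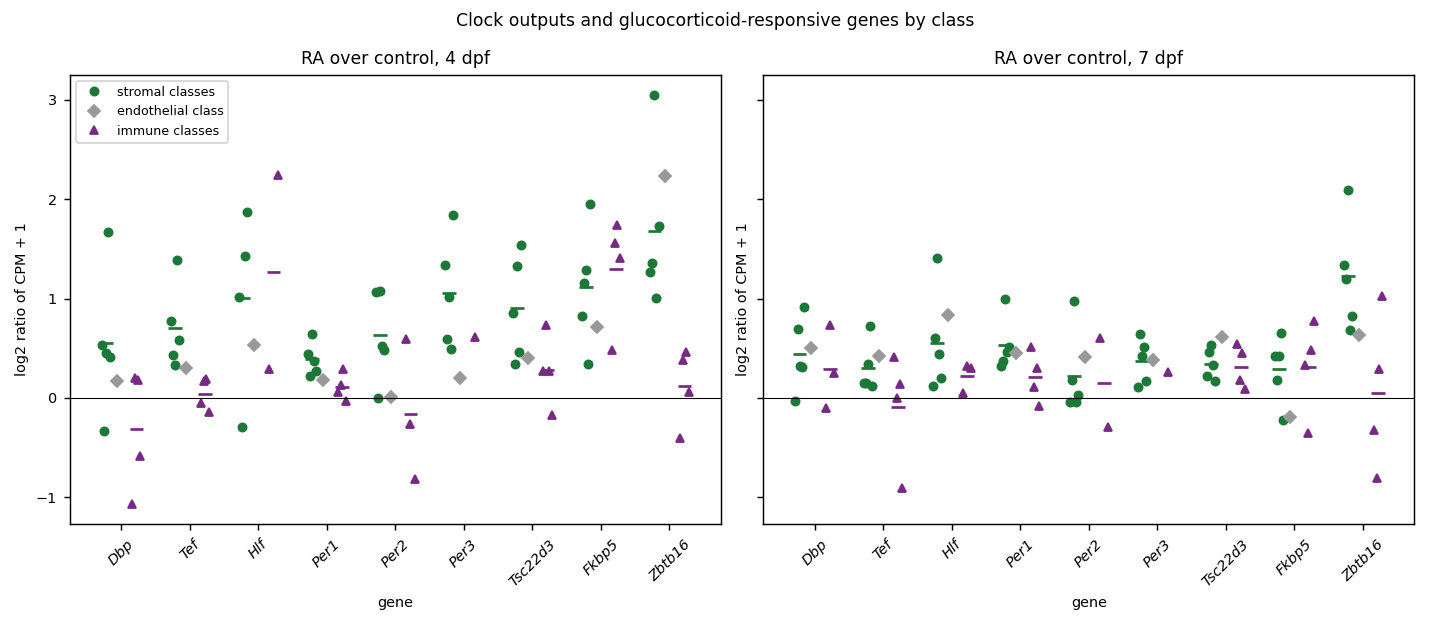
Log2 ratio of CPM + 1 for RA over control at 4 dpf (left) and 7 dpf (right), 1 point per class with at least 10 UMIs, for PAR bZIP and *Per* genes and for glucocorticoid-responsive genes (horizontal axis). Circles are stromal, diamonds endothelial and triangles immune classes, and short lines are means of the points shown. At 4 dpf the stromal points of *Tsc22d3* and *Zbtb16* lie above the immune points on average, while those of *Fkbp5* are level with them. Those of *Per3* lie on average above its only immune point, macrophages.

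Immediate early genes, which also respond to tissue handling, had a median of 0.11 at 4 dpf and 0.41 at 7 dpf for RA over control, with 8 and 10 of 10 genes higher. *Egr1* led with 0.70 and 0.79, followed by *Btg2* (0.41) and *Dusp1* (0.23) at 4 dpf and by *Nr4a1* (0.51) and *Atf3* (0.49) at 7 dpf. Heat shock and cold-responsive genes had medians of 0.07 and −0.02, with *Hspa1b* at 0.67, *Hspa1a* at 0.55 and *Hsph1* at 0.29 at 4 dpf. Housekeeping genes had medians of −0.11 and −0.15, with *Pgk1* at −0.54 and *Actb* and *Gapdh* at −0.35 each at 7 dpf. For 7 over 4 dpf in control and RA callus, the medians were −0.22 and 0.06 for immediate early genes, 0.07 and −0.11 for heat shock and cold-responsive genes, and −0.07 and −0.13 for housekeeping genes. The part of these genes in the values of the clock genes was not tested.

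Likeness between genes was measured over the 40 combinations of class and library as the correlation of log2(CPM + 1) after the mean of each class was taken away, which leaves the differences between libraries. These points share 4 libraries, so the correlations are descriptions. Among the members, *Dbp* was most like *Tef* (Pearson r = 0.66), *Per3* (0.63), *Per2* (0.58), *Nr1d2* (0.57) and *Nr1d1* (0.47), less like *Ciart* (0.26), and unlike *Cry1* (−0.32) and *Arntl* (−0.22). *Arntl* was in turn most like *Cry1* (0.57), and its r with *Per3* was −0.31.

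Of the 6928 genes with a mean of at least 20 CPM, those most like *Dbp* were *Pcgf5*, *Parp4*, *Prg4*, *Slc1a5*, *Brd2*, *Ccdc9*, *Snrk*, *Fos*, *Tns2* and *Cst3*, with r from 0.68 down to 0.62. Those least like it were *Wdr70*, *Sar1b*, *Prr13*, *Txnl4a*, *Gga2*, *Cmpk1*, *Arl4c*, *Gtf2h5*, *Nbas* and *Tram1*, with r from −0.72 to −0.68. No gene of the clock lists was among these 20 genes, but the limit left out the members most like *Dbp* before the ranking. *Tef* (r = 0.66, mean 17.7 CPM) and *Per3* (0.63, 4.17 CPM) had r within the range of the 10 leading genes. *Per2* (0.58, 10.2 CPM) fell under the limit too. The absence of clock genes was thus partly set by the limit.

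Classes with fewer than 50 cells in some library were not compared but can be described. The neutrophil class was led by *Camp*, *S100a9* and *Ngp*, with *Elane*, *Prtn3* and *Ctsg* also among its top genes and *Mki67* at 276 CPM. It thus included cycling granulocyte precursors and does not stand for mature neutrophils alone. With the looser cell filter, a separate neutrophil cluster of 873 cells was led by *Retnlg*, with *Mki67* at 19.0 CPM. In neutrophils (73 and 242 cells in control_4d and RA_4d, 92 and 49 in control_7d and RA_7d) *Per2* averaged 22.6 CPM, above each of the 10 classes compared, with 12.4 CPM in control_4d, 25.7 in RA_4d, 21.6 in control_7d and 30.5 in RA_7d. *Per3* in neutrophils was 1.55, 7.95, 2.01 and 8.98 CPM in the same order, from 3, 52, 4 and 10 UMIs, and both RA libraries were above both controls. *Arntl*, *Dbp* and *Nr1d1* were low in neutrophils, at means of 13.1, 2.24 and 8.57 CPM. Schwann cells averaged 24.7 CPM of *Dbp*, lymphatic endothelial cells 10.5 CPM of *Per3* and 10.3 CPM of *Ciart*, and osteoclasts 25.9 CPM of *Nr1d1*. Chondrogenic cells numbered 12 in control_4d and 10 in RA_4d, where each member rested on 1 to 22 UMIs.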

How the data were processed

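Single cells of fracture callus were captured with the 10x 3′ v3.1 chemistry in 4 libraries of 1 pool each, whose groups came from the labels. The deposited values were UMI counts per gene and cell made by the authors with Cell Ranger 7.0.1 against mm10, not normalised. Cells with 4000 to 50000 UMIs, 2000 to 7000 detected genes and at most 8% mitochondrial UMIs were kept, as in the study's methods. Kept UMIs per library ran from 83405494 to 156567619. Cells were integrated and clustered with Seurat 5.3.0 in R 4.3.3 (2000 variable genes without the clock lists, 30 integration dimensions, 15 principal components, resolution raised by 0.1 until 20 or more clusters formed), and clusters were named by markers. Doublets called by Scrublet in scanpy 1.11.5 were kept in the main values and left out in an alternative.

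UMIs were summed per class and library and expressed as CPM. Log2 ratios used a pseudocount of 1 CPM, which understates differences of low genes, and were averaged with equal weight over classes with at least 50 cells in every library. Genes compared had at least 50 UMIs over the classes of both libraries, and values of 1 class were counted with at least 10 UMIs. Intervals were exact Poisson intervals for levels, exact conditional intervals for ratios, and intervals from the counting variance for means. With 1 library per group no test was run, and 2-fold stood as the threshold of size. Low counts that are 0 allow up to 3 UMIs. The scripts were tested on simulated data.

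The 9 members are named in every class used. Other clock genes are named where a mean was at or past 2-fold, the other lists by their 3 largest means, and likeness by the 10 highest and 10 lowest correlations with *Dbp*. The members and lists were chosen with earlier results of these data known. Alternatives changed the scaling, pseudocount, class weights, cell filter, depth per cell, integration, resolution and grouping. Calculations used Python 3.11.15, numpy 2.4.6, pandas 2.3.3, scipy 1.17.1 and matplotlib 3.10.9.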

Additional observations from a re-analysis of the deposited data

Results flagged for a closer look

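For 4 genes of the clock lists, the means of 7 over 4 dpf had opposite signs in control and RA callus and a counting interval that excluded 0 in each. Genes with opposite signs whose interval included 0 in either kind of callus are not listed. The share of all genes that met this rule was not counted, so the 4 genes are not a result about the clock. Each has 1 library per group, and the difference between the kinds of callus was not tested. *Nfil3*, a repressor that acts on D-boxes, had means over the 10 classes of −0.0867 in control and 0.0901 in RA callus. Both were smaller in size than the median absolute mean of all genes, 0.110 in control and 0.117 in RA callus. *Fbxl21*, which encodes a protein that controls CRY turnover, had 0.21 and −0.32, at fewer than 10 UMIs in most classes. *Klf9*, a transcription factor that also responds to glucocorticoids, had −0.15 and 0.22. *Por*, the electron donor of cytochrome P450 enzymes, had 0.11 and −0.27.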

How the results depend on the processing

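None of the 9 members reached 2-fold in the mean over classes in any of the 4 comparisons under the 14 alternatives. Of 504 member values, 466 stayed within the counting interval of the main value and 38 moved beyond it. The sign differed in 31, of which 2 had a main value over 0.2 in size, both *Ciart* for RA_7d over RA_4d (−0.26, against 0.14 with a Mantel-Haenszel ratio over classes and 0.12 with cells thinned to 4000 UMIs); the cause was not tested. The stromal mean of *Per3* at 4 dpf, 1.06, was 0.51 with a pseudocount of 10 CPM, which by construction pulls low genes towards 0, and 0.99 with TMM scaling. For RA_7d over RA_4d, −1.08, it was −0.52 with that pseudocount, −0.88 with the looser cell filter, −1.40 with a Mantel-Haenszel ratio and −1.51 with cells thinned to 4000 UMIs. The log2 difference between *Dbp* and *Arntl* for RA_7d over control_7d, 0.34, was 0.00769 with all kept cells pooled and 0.00227 over classes with at least 20 cells. For control_7d over control_4d, −0.85, it was −0.50 with a pseudocount of 10 CPM, −0.58 with a Mantel-Haenszel ratio and −0.60 with the looser cell filter. For RA_7d over RA_4d, −0.57, it was −0.96 with all kept cells pooled. With the looser cell filter no mesenchymal progenitor or monocyte class was named, and chondrogenic and neutrophil classes were compared instead. Its values are therefore over a different set of classes. At resolution 0.25 a chondrogenic class likewise stood in place of the mesenchymal progenitor class. The cause of these moves was not tested. Of the 20 genes most and least like *Dbp*, 8 were also among them by Spearman correlation and 12 among genes with at least 50 CPM. Use of clusters in place of classes was chosen after seeing the data. No paired analysis was possible because each group held 1 library. The same lack of replicates means that serum, pool, day and hour of collection and library preparation cannot be told apart, and the low counts of *Per3* and *Ciart* limit what was detectable in single classes.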
